A study of Caenorhabditis elegans with 4 samples.

Results

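The left arm of chromosome V, taken as the stretch below 5.9 Mb, held 1230 of the 11110 regions (11.1%) in the combined binding list of a ChIP-seq experiment labelled NHR-129. A region was counted as a member when its midpoint lay on V below that boundary. All coordinates are those of WormBase WS220. ChIP-seq sequences the DNA that is precipitated together with a protein, and a region (or peak) is a stretch where the peak caller found more reads than in the control. The members were set beside the centre of V (5.9 to 16.55 Mb, 2484 regions), the right arm of V (984 regions) and the left arms of I, II, III, IV and X (1250 regions in all). The left arms of those 5 chromosomes were taken to end at 3.9, 4.9, 3.7, 3.9 and 6.1 Mb.

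Chromatin came from Caenorhabditis elegans hermaphrodites of strain OP339 at the L2 larval stage, grown at 20 °C. All samples, 2 ChIP and 2 Input, were from unc119(ed3) mutants with the transgene wgIs339, which holds nhr-129::TY1 EGFP FLAG together with an unc119 copy. The Input controls therefore carried the same transgene as the ChIP samples. The transgene was introduced by bombardment and the line was not outcrossed, per the labels, and the tagged protein was seen in seam cells, pharynx and head neurons. A region can therefore not be placed in one of these tissues, and peak positions hold no marker genes with which to check the stage or tissue.

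The arms of worm chromosomes recombine often, are rich in repeats and in histone H3 lysine 9 methylation, and carry many members of fast-evolving gene families, while essential genes concentrate in the centres. Chromosome V is known for its clusters of chemoreceptor and nuclear hormone receptor genes. NHR-129 belongs to the nuclear hormone receptors, DNA-binding proteins with a ligand-binding domain, a family that has expanded greatly in nematodes. In the WBcel235 gene table, V carried 167 of 269 genes with an nhr name (62.1%), nhr-129 among them, and 882 of 1303 named serpentine receptor genes (67.7%). F-box genes (fbxa, fbxb and fbxc names) and C-type lectin genes (clec names) were less concentrated there, with 87 of 322 (27.0%) and 85 of 239 (35.6%). The same table placed 25% of the 19983 protein-coding genes on V. These counts describe the whole chromosome. No gene is assigned to a member, because that table belongs to another assembly than the peak lists, and for the same reason no sequence of a member is shown.

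The lists give positions and q-values (p-values corrected for multiple testing) and no read counts, so the depth behind each list is unknown. All 1230 members carried a name beginning with GEI-11, which is another protein, and none carried NHR, as was the case for every peak of the 3 lists. The regions are therefore those of the ChIP labelled NHR-129, and which protein was precipitated cannot be told from the lists. Whether the replicates were separate worm cultures is not stated, so differences between them may be technical. The regions of an arm lie on the same DNA in the same samples and are not replicates. Differences between stretches of chromosome are given here in each replicate list, without a p-value.

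Regions were several times denser on the left arm of V than on the other left arms, and somewhat sparser than in the centre of V. The combined list had 208 regions per Mb on the V left arm, 233 per Mb in the V centre and 225 per Mb on the V right arm. The left arms of the other chromosomes had between 36.3 per Mb (II) and 73.8 per Mb (I). Replicate 1 had 152 peaks per Mb on the V left arm (895 peaks) and replicate 2 had 151 per Mb (893 peaks), so the totals differed by 2 peaks. The peaks themselves were only partly the same: 554 of replicate 1 and 557 of replicate 2 overlapped a peak of the other list. On the other left arms together, replicate 1 had 32.9 peaks per Mb and replicate 2 had 32.0. The arm was thus 4.61 times as dense as the other left arms in replicate 1 and 4.72 times in replicate 2. Against the V centre, the ratio was 0.765 in replicate 1 and 0.860 in replicate 2, below 1 in both. Against the V right arm it was 1.03 in replicate 1 and 1.23 in replicate 2, close to 1 in the first and above it in the second. The direction of this ratio depended on the list: it was 0.925 in the combined list and 1.40 among the regions found in both replicates.

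Slightly fewer members were found by both replicates than were not, as in the whole list. Peaks of both replicates overlapped 583 of the 1230 members by at least 1 bp. This share was 47.4% (44.6 to 50.2%, a 95% Wilson interval that covers counting error alone, as do all intervals here), against 48.5% of all combined regions. The V centre had 56.2% (54.3 to 58.2%) and the V right arm 31.3% (28.5 to 34.3%), with the left arm between them. The other left arms together had 48.0% (45.2 to 50.8%), which overlaps the interval of the V left arm. Counted over replicate peaks, sharing was lower on the V left arm than on the other left arms. There, 61.9% of the replicate 1 peaks and 62.4% of the replicate 2 peaks overlapped the other list. The other left arms had 82.7% and 85.6%, the V centre 67.1% and 77.0%, the V right arm 45.9% and 55.4%, and the whole lists 71.7% and 77.6%. Another 226 members (18.4%) were overlapped by replicate 1 alone and 186 (15.1%) by replicate 2 alone. Over all combined regions these shares were 14.8% and 9.75%. They were 18.9% and 9.74% in the V centre, 24.7% and 14.1% on the V right arm, and 10.1% and 7.92% on the other left arms. The remaining 235 members (19.1%) were found in neither replicate list, against 26.9% of all combined regions and 34.0% (31.4 to 36.7%) on the other left arms.

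**Figure D1:**
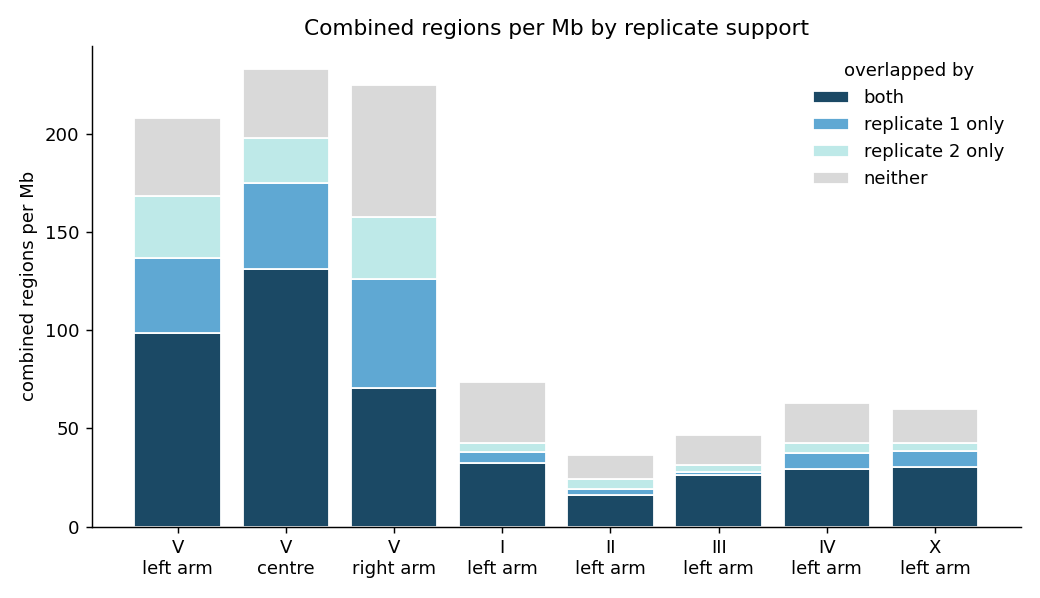
Combined regions per Mb (vertical axis) in 8 stretches of chromosome, with each bar divided by which replicate lists overlap the regions. The V left arm reaches 208 regions per Mb, of which 98.8 per Mb were found in both replicates, while the left arms of the other chromosomes stay at or below 73.8 per Mb.

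The members that stood in the combined list alone were mostly very narrow, unlike such regions on the other left arms. The 235 members found in neither replicate had a median width of 44 bp, and 83.4% of them were under 100 bp. On the other left arms, the 425 regions found in neither had a median width of 349 bp, and 11.1% were under 100 bp. Although so narrow, the V members had the smaller q-values: their median -log10 q-value, which is larger for a stronger peak, was 4.93, against 2.78 on the other left arms. Both values come from the combined list. The V centre (34 bp, 6.08) and the V right arm (49 bp, 4.25) resembled the V left arm in both respects. The strongest member found in neither replicate, V 2131043 to 2131151, was 109 bp wide with a combined q-value of 1.38e-10.

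Members were narrow, and among the width classes the excess over the other left arms lay in the narrow ones. The median width was 190 bp in the combined list (interquartile range 83 to 345.5 bp), 193 bp in replicate 1 and 173 bp in replicate 2. The V centre had medians of 230, 224 and 221 bp and the V right arm 146.5, 160 and 150 bp, in the same order of lists. The other left arms had medians of 477, 488 and 475 bp. The median on the V left arm was therefore 0.395 times that of the other left arms in replicate 1 and 0.364 times in replicate 2. Members under 100 bp numbered 365, or 29.7% (27.2 to 32.3%), against 14.1% of all combined regions and 4.08% (3.12 to 5.32%) on the other left arms. The rest of V was also rich in them, with 22.5% (20.9 to 24.2%) in the centre and 37.1% (34.1 to 40.2%) on the right arm. Of the 365 members, 79 were 10 bp or shorter.

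At widths of 500 bp or more, the V left arm had about the same density as the other left arms in each of the 3 lists. The combined list had 24.1 such regions per Mb on the V left arm and 25.6 per Mb on the other left arms, where single arms ran from 16.3 to 34.1 per Mb. Replicate 1 had 16.1 and 15.9 per Mb, and replicate 2 had 14.7 and 14.9 per Mb. Among the regions found in both replicates, which were a smaller share of the wide regions elsewhere than on V, the values were 23.9 and 17.5 per Mb, a ratio of 1.37. Below 500 bp, the V left arm had 136 peaks per Mb in replicate 1 and 137 in replicate 2, against 17.0 and 17.1 per Mb on the other left arms, ratios of 7.97 and 7.98. Under 100 bp, the V left arm held 253 peaks in replicate 1 and 293 in replicate 2, while the other left arms, 22.5 Mb in all against 5.9 Mb, held 3 and 5. In the class from 300 to under 500 bp the ratio had come down to 2.04 in replicate 1 and 1.88 in replicate 2. By strength, the excess was not limited to weak regions. At -log10 q-values from 20 to under 40, the combined list had 21.2 members per Mb, against 6.67 regions per Mb on the other left arms. From 40 to under 100 the values were 17.3 and 3.24 per Mb, and from 100 upward 5.25 and 0.756. In the weakest class, from 2 to under 5, they were 35.6 and 23.1 per Mb.

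**Figure D2:**
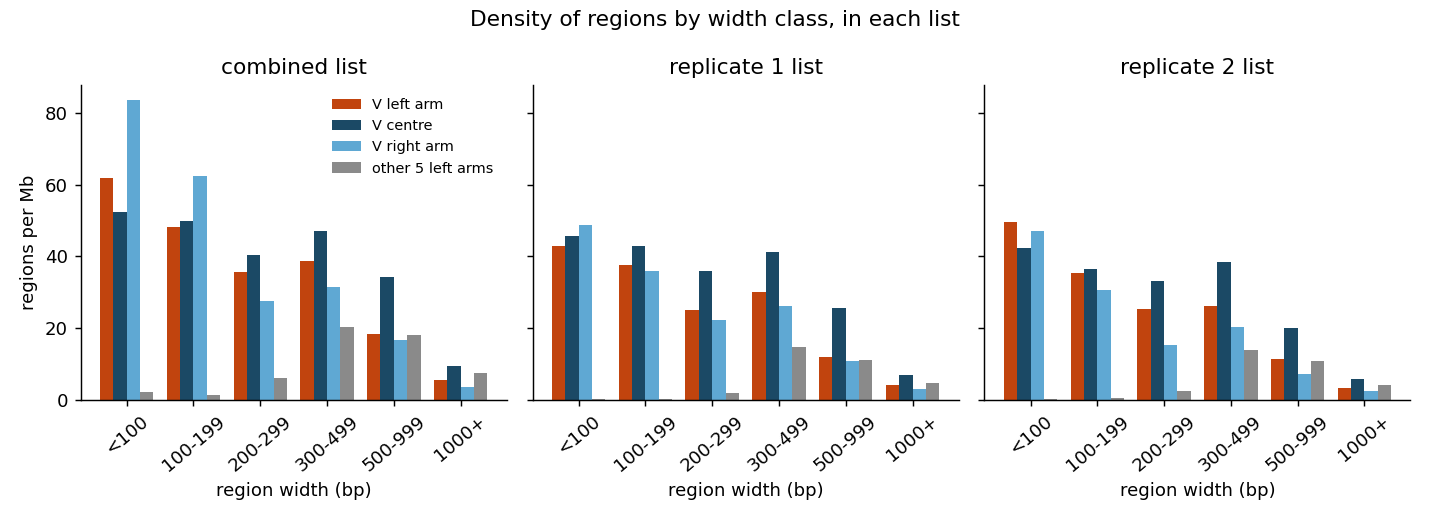
Regions per Mb (vertical axis) by width class in bp (horizontal axis) in the combined list and in each replicate list. Under 100 bp the V left arm has 61.9 regions per Mb in the combined list and the other 5 left arms 2.27, whereas from 500 to under 1000 bp the values are 18.5 and 18.2.

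Against the centre of V, the left arm was sparser at every width from 200 bp upward. From 500 bp upward, the left arm had 0.496 times the density of the centre in replicate 1 and 0.571 times in replicate 2. From 200 to under 300 bp the ratios were 0.699 and 0.764, and from 300 to under 500 bp they were 0.732 and 0.684. From 100 to under 200 bp they were 0.873 and 0.967. Under 100 bp they were 0.938 and 1.18, on both sides of 1. The largest relative deficit was thus in the wide peaks, in both replicates.

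Whether a member was found in both replicates went with its width. Of the 365 members under 100 bp, 2 were found in both (0.548%, interval 0.150 to 1.98%). The share was 21.8% from 100 to under 200 bp, 81.0% from 200 to under 300 bp, 91.2% from 300 to under 500 bp and 99.1% from 500 to under 1000 bp. All 33 members of 1000 bp or more were found in both. An overlap of 1 bp is easier to reach for a wide region, so width enters the count itself. The V centre followed the same course, with 82.8% from 200 to under 300 bp and 93.4% from 300 to under 500 bp. The other left arms had lower shares at the same widths: 8.15% (4.61 to 14.0%) from 200 to under 300 bp, 42.8% (38.3 to 47.4%) from 300 to under 500 bp and 61.9% (57.1 to 66.4%) from 500 to under 1000 bp.

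**Figure D3:**
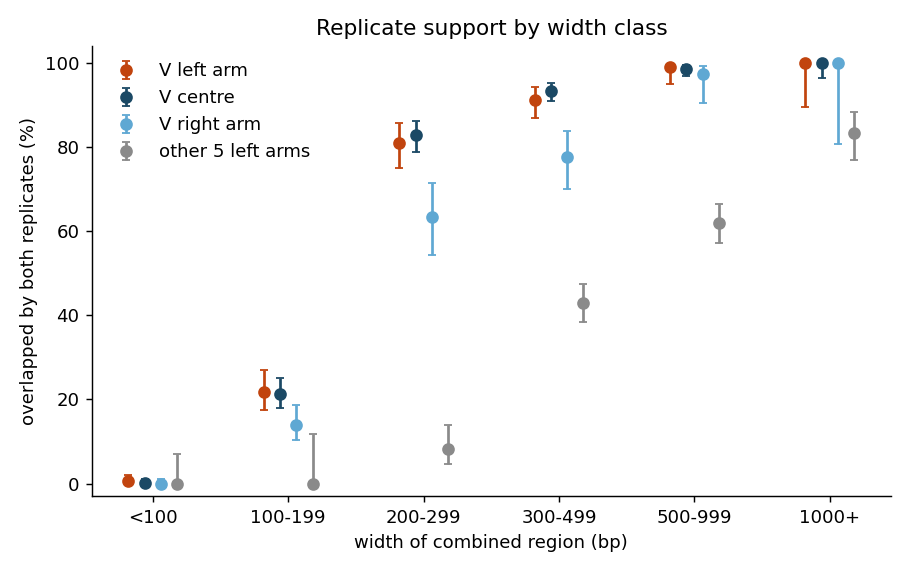
Share of regions in the combined list that peaks of both replicates overlap (vertical axis, percent, with 95% Wilson intervals) by width class (horizontal axis, bp). From 200 to under 300 bp, 81.0% of the V left arm regions were found in both replicates and 8.15% of those on the other 5 left arms.

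Width and strength were related differently on V. In the combined list, members from 300 to under 500 bp had a median -log10 q-value of 21.2, against 5.57 for regions of the same width on the other left arms. From 500 to under 1000 bp the medians were 43.6 and 9.88, and from 1000 bp upward 105 and 26.9. Read the other way, members with -log10 q-values from 10 to 20 had a median width of 278 bp, and regions of that strength on the other left arms had 570 bp. Sharing at matched strength was lower on V: in this class 81.5% (76.4 to 85.6%) of the members were found in both replicates, against 97.7% (94.7 to 99.0%) on the other left arms. At -log10 q-values of 20 or more, 257 of 258 members were found in both, and the other stretches were alike. From 20 to under 40 the share was 99.2% on the V left arm, 98.8% in the V centre, 98.6% on the V right arm and 100% on the other left arms. From 40 upward it was 100% in each of them.

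As a share of the members, strong regions were neither rare nor especially common. The strongest 10% of the combined list took in 133 members, or 10.8% (9.20 to 12.7%), against 16.9% (15.5 to 18.4%) of the V centre regions, 5.18% (3.96 to 6.75%) of the V right arm regions and 7.20% (5.89 to 8.77%) of those on the other left arms. By length, such regions were denser than on the other left arms: the 133 members lay in 5.9 Mb, against 90 regions in 22.5 Mb. The V centre held 420 in 10.7 Mb and the V right arm 51 in 4.37 Mb. In replicate 1, 9.72% of the V left arm peaks fell in the strongest 10% of the list, and in replicate 2, 8.85%. The corresponding values for the V centre were 13.8% in both replicates and for the V right arm 4.68% and 5.39%. In each of the 3 lists the left arm lay between the centre and the right arm.

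Where both replicates found a member, their peaks lay close together. A member enters this set only when peaks of both replicates overlap it, which itself keeps the distance between them small. Members missed by a replicate are not counted here. Of the 583 members found in both, 547 met exactly 1 peak of each replicate. The midpoints of these 2 peaks were a median of 28.5 bp apart, and for 75% of the members at most 58 bp. The offset was 28 bp in the V centre and 20 bp on the other left arms. The combined region was wider than either of its replicate peaks for 490 of the 547 members, with median widths of 329 bp in the combined list, 268 bp in replicate 1 and 245 bp in replicate 2. The q-values of both replicates ranked the 583 members similarly (Spearman's rho 0.861 across regions of the same samples, a description). The q-value was smaller in replicate 1 for 371 of them (63.6%), and the combined q-value was smaller than both for 581.

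**Figure D4:**
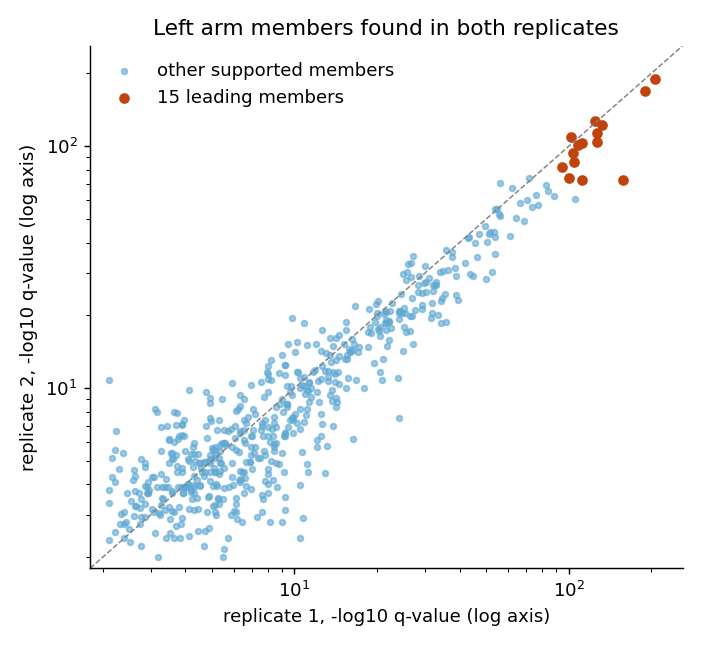
Strength of the 583 members found in both replicates, as -log10 q-value in replicate 1 (horizontal, log axis) and in replicate 2 (vertical, log axis), with equal values on the dashed line. The 15 leading members, in red, lie at the upper right, and 371 of the 583 points lie below the line.

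The leading members were taken as the 15 whose q-values ranked best on average over both replicate lists. The first, V 4041832 to 4042502, measured 671 bp, and its q-value was 5.79e-207 in replicate 1 (rank 17) and 5.30e-190 in replicate 2 (rank 12). Its replicate peaks, 4041840 to 4042483 and 4041833 to 4042504, nearly coincided with the combined region. The second, V 5080624 to 5081785, had q-values of 8.64e-191 (rank 20) and 2.96e-169 (rank 17). The third reached rank 47 and rank 43.

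The third member, V 1151104 to 1152165, reached 2.42e-133 in replicate 1 and 1.02e-122 in replicate 2. The fourth, V 5049243 to 5050285, had 5.65e-125 and 3.19e-128, and was stronger in replicate 2. It lay near the second leading member and near V 5131326 to 5131838. The latter was the narrowest of the 15, at 513 bp, and had q-values of 4.11e-127 and 1.83e-114. Another pair, V 4130714 to 4132004 and V 4164228 to 4165094, followed with mean ranks of 57.5 and 70.

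The eighth leading member lay at the tip of the chromosome. It spanned V 8042 to 9595, with 3 weaker members to its left, and its q-value was 1.04e-102 in replicate 1 and 3.32e-110 in replicate 2. The remaining leading members were V 1473645 to 1475355, V 5271333 to 5273600, V 2137952 to 2138896, V 731216 to 731850, V 4506684 to 4508534, V 1153105 to 1156779 and V 3805257 to 3805942, with mean ranks from 77 to 124.5. The 15 were from 513 to 3675 bp wide and lay in 2 stretches of the arm, with none between 2138896 and 3805257 and none beyond 5273600.

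The region V 5271333 to 5273600 held rank 1 of the whole combined list, with a q-value of 2.92e-294, but not of either replicate. Replicate 1 had a single peak of 2185 bp there with a q-value of 4.87e-159 (rank 32). Replicate 2 had 2 peaks, the stronger of them 1191 bp wide, with a q-value of 1.41e-73 (rank 148). Its place at the head of the combined list therefore went with unequal replicate ranks. Each rank is that of the strongest single peak, so in replicate 2 it stands for only part of the region. Whether the signal over the whole region was unequal cannot be told from these ranks. The same difference in ranks was seen at V 4506684 to 4508534, at rank 74 in replicate 1 and rank 150 in replicate 2, where replicate 2 again had 2 peaks.

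The widest member, V 1153105 to 1156779 (3675 bp), lay 939 bp beyond the third leading member. Replicate 1 resolved it into 3 peaks and replicate 2 into 2. It was followed by V 3579056 to 3581641 (2586 bp), V 4963984 to 4966459 (2476 bp), V 5271333 to 5273600 (2268 bp) and V 1804172 to 1806151 (1980 bp). All 5 were found in both replicates, and each met 2 or more peaks in at least 1 of them.

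Counts differed by 2.71 times between the sparsest and the densest window of the arm, and the replicates moved together in all 10 steps from one window to the next. Over the 11 whole windows of 0.5 Mb, the combined list had 103 ± 29.2 members per window (SD over windows), replicate 1 had 74.1 ± 21.5 peaks and replicate 2 had 74.5 ± 22.6. The lowest count in all 3 lists fell in the window from 0.5 to 1 Mb, with 62 members, 45 replicate 1 peaks and 46 replicate 2 peaks. The highest fell in the next window, from 1 to 1.5 Mb, with 168 members, 117 replicate 1 peaks and 113 replicate 2 peaks. The windows from 3.5 to 4 Mb (94 and 102 replicate peaks) and from 4.5 to 5 Mb (92 and 105) were also dense, with sparser ones on either side. The peak counts of the replicates had a Spearman's rho of 0.812 over the 11 windows, which are neighbouring stretches of the same chromosome and share each list's depth.

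**Figure D5:**
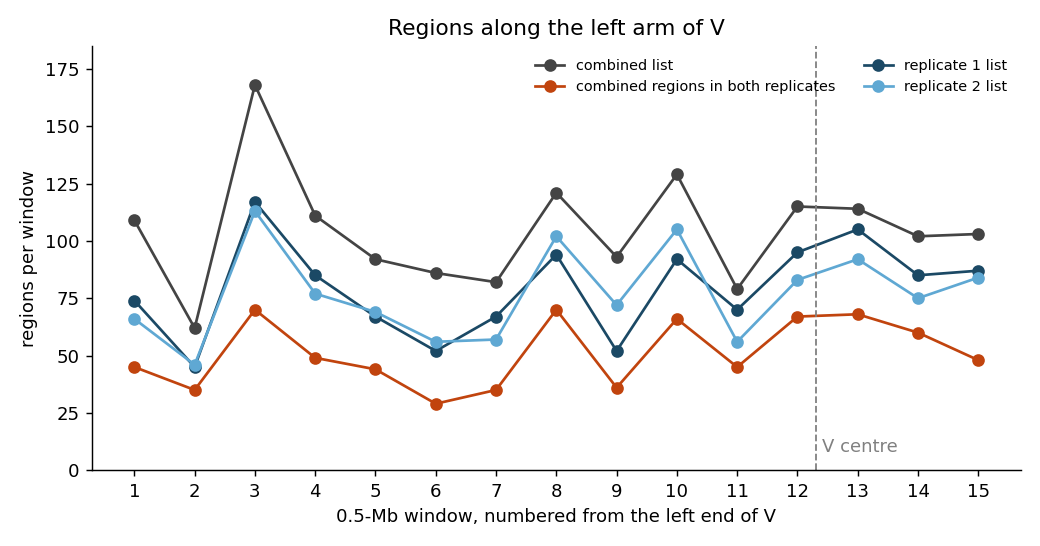
Regions per 0.5-Mb window (vertical axis) along the left end of V, with windows numbered from the left end (horizontal axis) and the boundary with the centre shown as a dashed line. The window from 1 to 1.5 Mb, number 3, holds 168 regions of the combined list and the one before it 62. The boundary lies inside window 12, which holds 115 regions, with 79 in the window before it and 114 in the one after. Counts in such windows cannot show whether a step falls at the boundary itself.

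The densest window was not the one with the largest share of supported members. From 1 to 1.5 Mb, 41.7% of the members (34.5 to 49.2%) were found in both replicates, against 57.9% (48.9 to 66.3%) from 3.5 to 4 Mb, and both windows held 70 supported members. The smallest share, 33.7% (24.6 to 44.2%), fell between 2.5 and 3 Mb, where 39.5% of the members were under 100 bp. The last whole window of the arm, from 5 to 5.5 Mb, had the largest median -log10 q-value of the 11, 12.9, and the smallest share of members under 100 bp, 17.7%. The first windows beyond the boundary continued this level, with medians of 14.8 from 6 to 6.5 Mb and 14.5 from 6.5 to 7 Mb. From 7 to 7.5 Mb the median was 8.80 and 28.2% of the regions were under 100 bp, within the range of the arm's windows.

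The boundary fell in a gap of 26097 bp, well above the median gap on either side. The last member, V 5891246 to 5891500 (255 bp), had a combined q-value of 9.48e-13 and its midpoint 8627 bp inside the boundary. The first region outside, V 5917598 to 5918052 (455 bp), had a q-value of 1.30e-41 and its midpoint 17825 bp beyond it. Both were found in both replicates.

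Members lay close to one another, often within 1 kb. The median gap from one member to the next was 1898 bp, against 1504 bp in the V centre, 2004 bp on the V right arm and between 6744 bp (I) and 12862 bp (II) on the other left arms. No gap in the list was under 200 bp. Gaps of at most 1 kb made up 30.9% of the gaps on the V left arm, 38.3% in the V centre, 30.5% on the V right arm and between 10.5% (III) and 16.7% (I) on the other left arms. Joined across such gaps, the members made 850 runs, of which 626 held a single member and 21 held 5 or more. Runs of 5 or more numbered 54 in the V centre and 11 on the V right arm, and the other 5 left arms had 2 between them, from 1250 regions. Close spacing was therefore found in all 3 stretches of V, where regions were also denser. Gaps shorten as density rises, and spacing was not compared at equal density.

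The run with the most members, V 4686723 to 4695154, held 11 over 8432 bp, of which 7 were found in both replicates. Replicate 1 had 9 peaks there and replicate 2 had 10. The next, V 3579056 to 3589370, held 9 members over 10315 bp, 7 of them in both replicates, and began with the second widest member. The third, V 5292812 to 5299894, held 8 members over 7083 bp, again with 7 in both. The widths within these 3 runs ranged from 3 to 2586 bp.

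The arm also had long stretches without a member. The longest, V 2340258 to 2565540, measured 225 kb and was far longer than any other on the arm. It held 1 replicate 1 peak and no replicate 2 peak, so all 3 lists were nearly empty there. The next were V 4372014 to 4443064 (71.1 kb), with 2 replicate 1 peaks and no replicate 2 peak, and V 5330378 to 5393505 (63.1 kb), with no peak in either replicate. The longest gap in the V centre measured 105605 bp and that on the V right arm 72596 bp, while the II left arm had one of 324712 bp.

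Some replicate peaks of the arm had no counterpart in the combined list. Of the 895 replicate 1 peaks, 67 (7.49%) were not overlapped by a member or any other combined region, and of the 893 replicate 2 peaks, 96 (10.8%). Over the whole lists the shares were 4.23% and 4.71%. The V centre had 7.30% and 6.56% and the V right arm 10.8% and 12.8%, with the left arm between them in both replicates. The other left arms had 0.675% and 0.971%. Most of these peaks were tiny, with median widths of 27 bp in replicate 1 and 19.5 bp in replicate 2. Apart from the loci named next, the strongest of them had a q-value of 4.37e-06 in the replicate 1 list and 3.10e-06 in the replicate 2 list.

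A single strong locus of the arm was present in both replicates and absent from the combined list. It spanned V 4823041 to 4827621 (4581 bp), and its q-value was 1.56e-162 in replicate 1 (rank 29) and 4.54e-142 in replicate 2 (rank 26). Its ranks lay between those of the second and the third leading member, and it was wider than every member. The nearest member, V 4821571 to 4821816, ended 1224 bp before it. Once replicate peaks within 200 bp of each other had been merged, the arm had 594 shared loci, so 0.168% were absent, against 0.545% of all 5500 shared loci, 1.31% in the V centre, 0.946% on the V right arm and 0.333% on the other left arms. With peaks merged within 1000 bp, 2 of 471 loci of the arm were absent (0.425%) and 1 of 981 in the V centre (0.102%), so the order of the arm and the centre turned.

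The strongest replicate 2 peak of the arm stood in that list alone. It spanned V 5779873 to 5781144 (1272 bp) with a q-value of 8.87e-280, rank 3 of the replicate 2 list. Neither replicate 1 nor the combined list had a peak overlapping it. All 3 lists had a weaker peak just to its left, whose last base was 5779337 in replicate 1, 5779456 in replicate 2 and 5779427 among the members. To its right, the next peak began at 5788649, 5788606 and 5788601, in the same order. The surrounding peaks were thus shared, and the strong one was not.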

How the data were processed

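ChIP and Input samples (2 each) were grouped and numbered by their titles. Per the labels' protocols, L2 worms were crosslinked, sonicated and precipitated with anti-GFP antibodies. The files analysed here are 3 peak lists: 1 per ChIP sample and 1 combined. Peaks were called with PeakSeq on WormBase WS220, per the file headers and columns. The authors deposited the first and last base of every peak with its q-value, which was below 0.01 for all 25802 peaks. Aligner, PeakSeq settings, control reads and the making of the combined list were not given in the sources used here. A message in the replicate 2 list shows that its coordinates were converted from another build, with 1 peak commented out.

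Positions were compared in Python 3.11.15. The libraries were SciPy 1.17.1, pandas 2.3.3, Matplotlib 3.10.9 and NumPy 2.4.6. Support means an overlap of at least 1 bp. The length of the V right arm was taken up to the last peak, at 20.92 Mb. The ends of the other left arms are recombination boundaries known for these chromosomes, rounded to 0.1 Mb. The q-values were ranked within a list. Shares carry 95% Wilson intervals (counting error only; depth is unknown). The rule for named regions took the 15 leading supported members, the 5 widest, those beside the boundary, shared loci absent from the combined list, and the 3 longest runs and empty stretches. Width classes, q-value classes, the strongest member by support and the lone replicate 2 peak were chosen after their values had been seen. The members and these lists were chosen with earlier results of these data known. Overlap counts were checked by brute force and on planted copies of a list. Alternatives covered the overlap rule, q-value limit, width limit, merging, boundary and single lists. A genome or annotation of WS220 was not used here.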

Additional observations from a re-analysis of the deposited data

How the results depend on the processing

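Of 53 alternatives to 8 results, none moved a density or width ratio against the V centre or the other left arms across 1. Ratios against the V right arm were not among these results. In all, 22 alternatives stayed within the replicate spread (or the Wilson interval) and 31 moved further. No paired analysis was possible because the Input samples have no list here and no test was run. In the lists that leave out one replicate, density ratios ran from 0.765 to 0.860 (V left arm over V centre) and from 4.61 to 4.72 (over the other left arms), and width ratios from 0.783 to 0.862 and from 0.364 to 0.395. The values from the replicated set were 0.753, 3.71, 0.929 and 0.558, in the same order. The combined list gave 0.894 for density against the centre, and 0.826 and 0.398 for width. With 50% of each region covered by both replicates, density against the other left arms was 2.75 and width 0.630. The strongest 50% of regions gave 3.92, a boundary 0.5 Mb lower 3.58, and equal lengths of every chromosome 3.10. Merging within 1000 bp gave densities of 0.832 and 3.12 and a width of 0.584. Support by both replicates was 32.4% with this coverage rule, 40.7% with centres within 100 bp, 82.1% among the strongest 50% and 67.2% from 100 bp upward. In the same order, replicate 1 peaks were shared in 52.6%, 57.3%, 92.9% and 77.6% of cases, against 61.9%, and replicate 2 peaks in 55.7%, 57.4%, 94.8% and 82.2%, against 62.4%. Support by both replicates thus passed from under to over 50% among the strongest regions and among those from 100 bp upward. Merging within 1000 bp left 2 absent loci in place of 1, a share above that of the V centre (0.425% against 0.102%) where it had been below it (0.168% against 1.31%). Apart from what each alternative's construction fixes, the cause was not tested. Without read counts, how far depth limits the lists is unknown.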
